A study of Homo sapiens with 16 samples.

Results

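The response of an MRPL45 knockout line of Ewing sarcoma cells to the compound SP-2509 was measured by RNA sequencing in 4 of the 16 libraries of the series, 2 from cells given SP-2509 and 2 from cells given the vehicle, with all genes of the count table considered. A673 is an established Ewing sarcoma cell line, driven by the EWSR1::FLI1 fusion. The MRPL45 knockout line was made in A673, and each knockout line of the series is monoclonal, so it stands for 1 clone. Cells of the MRPL45 knockout line received 500 nM SP-2509 or 0.1% DMSO for 48 h, and both groups carried the knockout. The other 12 libraries came from A673 without a knockout and from lines with a CYC1 or an UQCRFS1 knockout, called the CYC1 line and the UQCRFS1 line below, each with 2 libraries per treatment at the same dose and time. They are used here for comparison only.

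SP-2509 is an inhibitor of LSD1 (KDM1A), a histone demethylase that works in complexes with CoREST, NuRD and related partners. MRPL45 is a protein of the large subunit of the mitochondrial ribosome, which translates the few proteins that mitochondrial DNA encodes, all of them parts of the respiratory chain and the ATP synthase. The genes knocked out in the other lines, CYC1 and UQCRFS1, encode parts of respiratory complex III. Mitochondrial and other stresses are known to act through kinases that phosphorylate eIF2α, after which the transcription factors ATF4, ATF5 and CHOP (DDIT3) are made and raise the genes of the integrated stress response. A second system described below, the SREBP factors, drives cholesterol and fatty acid synthesis when sterols are scarce.

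Libraries of the MRPL45 knockout line held 47074045 and 27544362 counted reads with DMSO and 24873597 and 48476073 with SP-2509. Those of the other lines held 37877638 to 56171036, so the libraries of 27544362 and 24873597 were smaller than any of them. KDM1A, the target of the compound, was measured at 171 and 175 CPM with DMSO and 167 and 174 with SP-2509, where CPM are read counts scaled to the library total times its TMM normalization factor. It did not pass the test (log2 fold change -0.02 ± 0.06 SE, adjusted p = 0.86). EWSR1 had a log2 fold change of -0.097 ± 0.06 and FLI1 one of -0.11 ± 0.06, neither called. MRPL45 itself is not analysed here, so the transcripts give no check of the knockout. All 11 markers of Ewing sarcoma cells were detected and edgeR called none of them, although 2 had an unadjusted p under 0.05 and DESeq2 called 2. Of the markers of other cell types, KDR and EMCN of endothelium were called, 1 higher and 1 lower. PDGFRB of fibroblasts was called lower. The 5 endothelial markers summed to 29.9 and 33.9 CPM with DMSO and 27.2 and 26.3 with SP-2509, and the 8 fibroblast markers to 1467 and 1326 and to 1510 and 1603. Their part in the results was not tested. In RNA from a whole culture, fewer cells of a kind and less RNA per cell cannot be told apart.

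SP-2509 changed 4005 of the 21633 genes tested in the MRPL45 knockout line, which is 18.5% (edgeR quasi-likelihood test, Benjamini-Hochberg adjusted p under 0.05, the rule behind every call below). Of these, 2255 rose (10.4% of genes tested) and 1750 fell (8.09%). These shares are the background against which every list count below is read. The balance depended on the scaling, with 1969 higher and 2183 lower under upper-quartile factors and 2246 and 1169 by DESeq2. The lower count was 893 without DMSO replicate 2, 939 without SP-2509 replicate 1 and 871 without SP-2509 replicate 2. The changes were small: the median absolute log2 fold change of the called genes was 0.36, and 301 genes (1.39%) were called with a change of at least 2-fold, 158 higher and 143 lower. DESeq2 gave 145 such genes, and 53 were left among genes with a mean of 5 CPM or more. Libraries of the 2 treatments did not overlap for 53.5% of the genes tested, 27.3% higher and 26.2% lower, which is the background against which non-overlap of single genes is read. For each list, up to 6 called members with the smallest p were named, a choice that favours non-overlap. Where it is given below, it therefore describes those genes and adds no separate support. With 1 SP-2509 library left out, 2615 or 2393 genes were called.

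**Figure D1:**
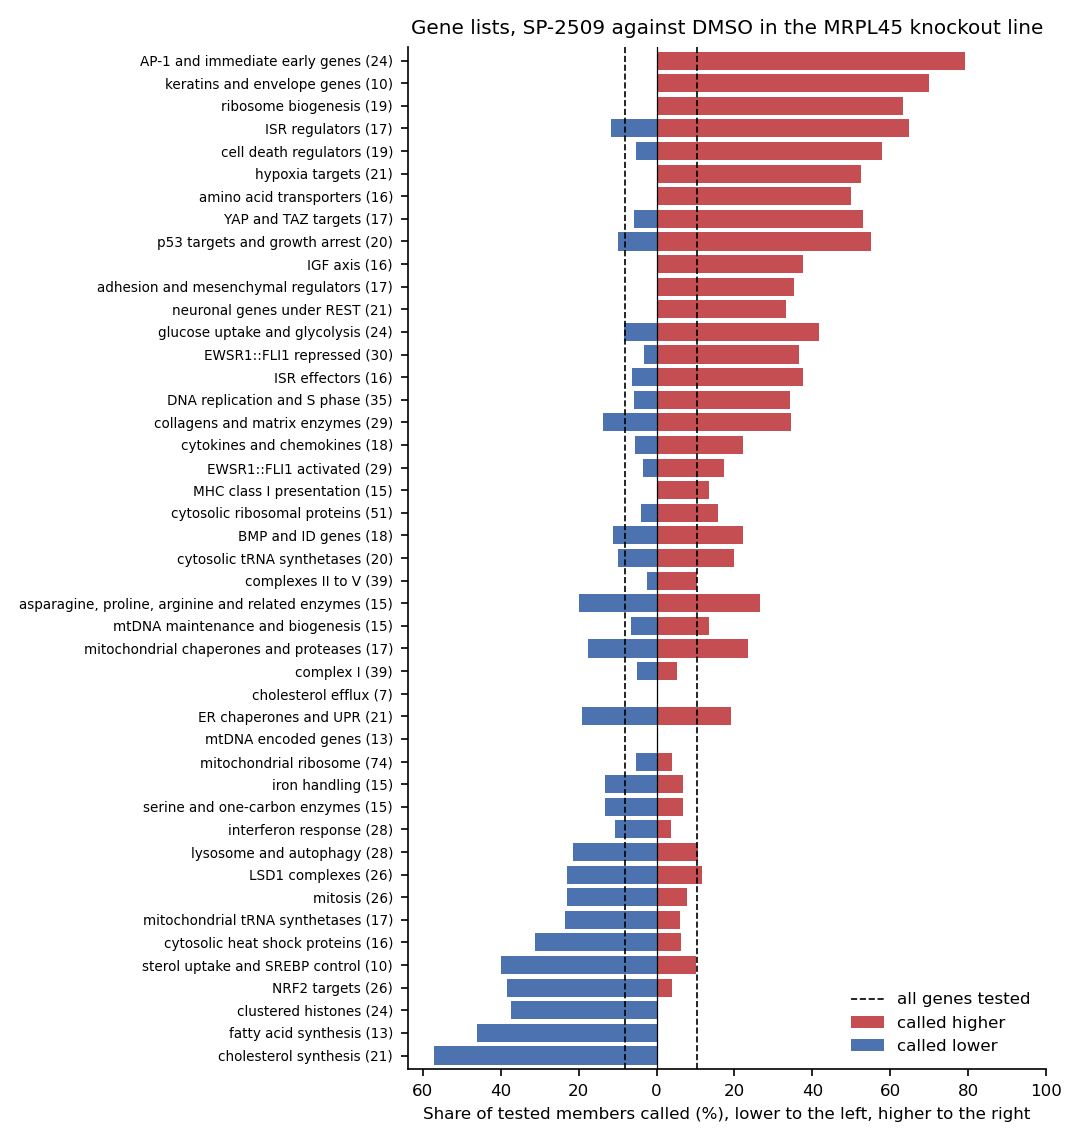
Share of the tested members of each of 45 gene lists called lower (blue, to the left) or higher (red, to the right) with SP-2509 in the MRPL45 knockout line, in percent, with the number tested in parentheses. The dashed lines are the shares over all genes tested, 8.09% lower and 10.4% higher. The AP-1 list has the highest net share of rising members and cholesterol synthesis the highest net share of falling ones among these lists.

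Regulators of the integrated stress response rose together: 11 of 17 tested members were called higher and 2 lower, with a median log2 fold change of 0.31 against -0.01 over all genes. TRIB3, a pseudokinase that ATF4 and CHOP induce and that feeds back on them, was measured at 48.3 and 48.2 CPM with DMSO and 129.8 and 132 with SP-2509 (log2 fold change 1.44 ± 0.07 SE, adjusted p = 3.3e-12). PPP1R15A (GADD34), the subunit that directs a phosphatase to eIF2α, stood at 75.6 and 89.2 CPM with DMSO and 239 and 206 with SP-2509 (log2 fold change 1.43 ± 0.09 SE, adjusted p = 5.9e-09). DDIT3, which encodes CHOP, had 7.12 and 7.76 CPM with DMSO and 19.4 and 18.7 with SP-2509 (log2 fold change 1.36 ± 0.08 SE, adjusted p = 2.4e-11). In each of these genes both treated libraries lay above both controls. ATF3, a stress-induced factor of the same family, went from 14.3 and 15.5 to 36.6 and 35.2 CPM (log2 fold change 1.27 ± 0.08). ATF5, an activator of mitochondrial stress genes, went from 94.4 and 100.02 to 202 and 208 CPM (1.08 ± 0.08). ATF4 transcript rose from 135 and 133 to 204 and 204 CPM (0.601 ± 0.06). Its protein is known to be controlled mainly at translation, which was not measured. The 2 called members that fell were the eIF2α kinase gene EIF2AK4 (GCN2; -0.32 ± 0.06) and JDP2, a repressor of the AP-1 type (-0.32 ± 0.08, call lost under 2 of 12 alternatives).

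**Figure D2:**
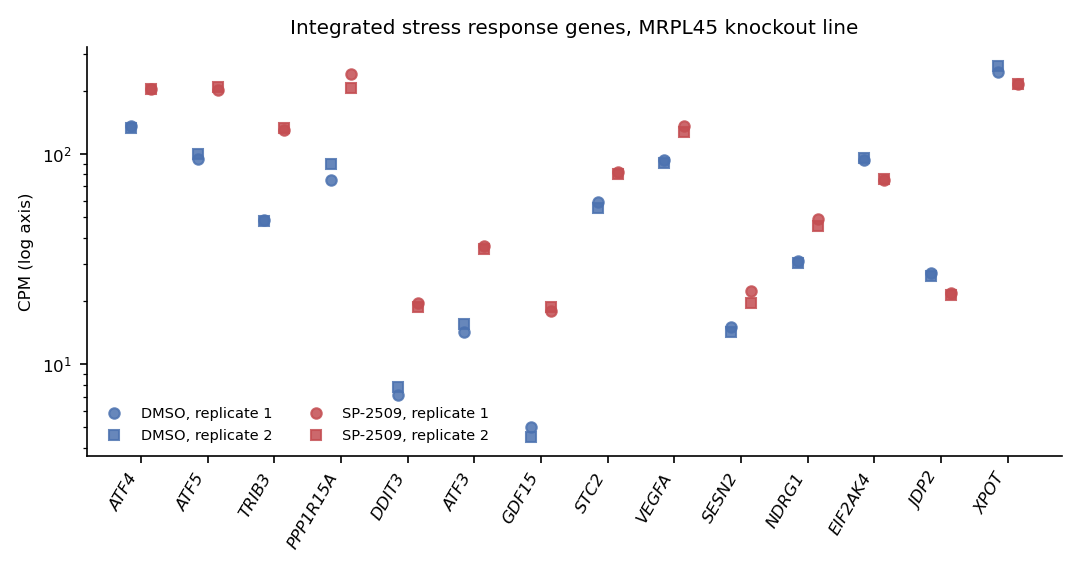
Level of integrated stress response genes in each library of the MRPL45 knockout line, in CPM on a log axis, with DMSO in blue and SP-2509 in red. Circles are replicate 1 and squares replicate 2. Both treated libraries lie above both controls for the rising genes such as GDF15, TRIB3 and DDIT3, and below them for EIF2AK4, JDP2 and XPOT.

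Among the effectors downstream of these factors, 6 of 16 tested genes rose and 1 fell. GDF15, a secreted stress hormone, showed the highest fold change among genes reaching 5 CPM, at 5.05 and 4.49 CPM with DMSO and 17.9 and 18.7 with SP-2509 (log2 fold change 1.93 ± 0.11 SE, adjusted p = 2.3e-11). NDRG1, SESN2, STC2, TSC22D3 and VEGFA were also called higher, with log2 fold changes of 0.62 ± 0.10, 0.50 ± 0.09, 0.50 ± 0.08, 0.44 ± 0.08 and 0.52 ± 0.06. The tRNA exporter gene XPOT fell (-0.25 ± 0.06, call lost under 1 of 12 alternatives). CHAC1, a glutathione-degrading enzyme and a well-known CHOP target, was measured at 10.7 and 9.97 CPM with DMSO and 10.8 and 10.8 with SP-2509 and was not called (log2 fold change 0.06 ± 0.10). CHAC1 and the uncalled genes of the next paragraph were chosen after their values were seen.

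Amino acid genes are given by role. Of 16 amino acid transporter genes, 8 rose and 0 fell, with 8 at an unadjusted p under 0.05 and the same counts by DESeq2. The neutral amino acid carrier SLC6A15 was at 29.5 and 29.97 CPM with DMSO and 52.3 and 51.1 with SP-2509 (log2 fold change 0.80 ± 0.06 SE, adjusted p = 3.9e-09). The carriers SLC38A1 and SLC38A2 and the heavy chain SLC3A2 had log2 fold changes of 0.49 ± 0.07, 0.38 ± 0.06 and 0.39 ± 0.07. Of 15 enzymes of serine and one-carbon metabolism, 1 rose and 2 fell. The one that rose was MTHFD2, the mitochondrial folate enzyme, from 178 and 179 to 241 and 246 CPM (0.45 ± 0.06). ALDH1L2, which oxidises formyl-folate in mitochondria, fell from 3.13 and 3.56 to 1.66 and 1.62 CPM (-1.02 ± 0.15), and MTHFD1L had -0.21 ± 0.07 (call lost under 5 of 12 alternatives). PHGDH, the first enzyme of serine synthesis, was not called (-0.04 ± 0.07), nor was PSAT1 (0.11 ± 0.06). Of 15 enzymes for asparagine, proline, arginine and related amino acids, 4 rose and 3 fell. GOT1 rose by 0.52 ± 0.06, CTH by 0.47 ± 0.08 and CBS by 0.23 ± 0.06 (call lost under 1 of 12 alternatives). The argininosuccinate synthase gene ASS1 went from 4.13 and 4.39 to 1.36 and 1.83 CPM (-1.37 ± 0.16). ASNS, asparagine synthetase, was at 130.3 and 138 CPM with DMSO and 134 and 136 with SP-2509 and was not called (0.02 ± 0.06). Cytosolic tRNA synthetases gave 4 higher and 2 lower of 20, and 7 higher and 1 lower by DESeq2 or with RLE factors, with AARS at 0.34 ± 0.06. The mitochondrial ones gave 1 higher and 4 lower of 17, with AARS2 at -0.52 ± 0.08. Its lower count was 2 without DMSO replicate 2 or SP-2509 replicate 1. The cytosolic lower count was 0 in both cases, and 1 without SP-2509 replicate 2. The asparagine, proline and arginine list gave 2 higher without SP-2509 replicate 2, and the serine and one-carbon list 1 lower without DMSO replicate 1 or either SP-2509 replicate.

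The promoter of ATF3 is shown because it is a rising gene with a match to the core letters of the C/EBP-ATF response element. The 250 bases before each gene's start were read from RefSeq (GRCh38.p14; the deposited counts were made on hg19), and TGATGNAA was searched on both strands. It was found in 2 of the 15 matched promoters among the 17 stress response regulators and effectors that rose, in 1 of 9 among those not called, and in 3.19% of 27305 promoters. The cAMP response element TGACGTCA was in 1 of the 15, against 1.77%. The ATF3 promoter lies at chr1:212565157-212565406, plus strand, is written 5′ to 3′ along the gene and has the match in capitals. A match is only a run of letters and was not measured as a site here.
ATF3: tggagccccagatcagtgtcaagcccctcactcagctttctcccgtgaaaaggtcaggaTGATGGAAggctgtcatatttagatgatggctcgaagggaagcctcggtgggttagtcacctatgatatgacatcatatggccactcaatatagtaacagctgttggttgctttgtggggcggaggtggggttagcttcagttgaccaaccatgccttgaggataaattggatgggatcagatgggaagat

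Genes of cholesterol synthesis fell as a group: 12 of 21 tested members were called lower and 0 higher, with a median log2 fold change of -0.33. By DESeq2 the counts were 11 lower and 0 higher, and 14 members had an unadjusted p under 0.05. MVD, mevalonate diphosphate decarboxylase, was measured at 25.1 and 27.001 CPM with DMSO and 16.3 and 14.998 with SP-2509 (log2 fold change -0.74 ± 0.08 SE, adjusted p = 3.5e-07). MSMO1, a sterol methyl oxidase, was at 53.2 and 57.1 CPM with DMSO and 33.5 and 36.2 with SP-2509 (log2 fold change -0.66 ± 0.07 SE, adjusted p = 5.2e-07). HMGCS1, which makes the HMG-CoA that enters the pathway, had 74.1 and 77.6 CPM with DMSO and 52.2 and 46.7 with SP-2509 (log2 fold change -0.62 ± 0.07 SE, adjusted p = 5.4e-07). All of these lay lower in both treated libraries than in both controls. FDFT1 (squalene synthase), DHCR7 (the last step to cholesterol) and SQLE (squalene epoxidase) had log2 fold changes of -0.55 ± 0.06, -0.54 ± 0.07 and -0.48 ± 0.06. CYP51A1 had 12.9 and 4.32 CPM with DMSO and 6.78 and 4.56 with SP-2509. Its controls differed from each other by more than the treatments did, and it was not called (-0.69 ± 0.50, adjusted p = 0.44). CYP51A1 was named after its values were seen.

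Sterol uptake and its control gave 4 lower and 1 higher of 10 tested genes. INSIG1, which holds SREBP in the endoplasmic reticulum, went from 27.5 and 29.7 to 19.97 and 19.4 CPM (-0.54 ± 0.07). STARD4, a sterol carrier, had -0.27 ± 0.08 (call lost under 3 of 12 alternatives). MYLIP, a ubiquitin ligase that limits sterol uptake, was the member that rose (0.46 ± 0.08). Fatty acid synthesis gave 6 lower and 0 higher of 13 (the same counts by DESeq2, and 7 with an unadjusted p under 0.05). The desaturase SCD and the NADPH-producing ME1 had -0.39 ± 0.06 and -0.405 ± 0.06, FASN -0.32 ± 0.09 (call lost under 3 of 12 alternatives), and FADS2 -0.32 ± 0.07 (call lost under 2 of 12 alternatives). Without SP-2509 replicate 1 the fatty acid count was 3 lower. No gene of cholesterol efflux was called among 7 by edgeR, 3 had an unadjusted p under 0.05, and DESeq2 called 1 higher.

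**Figure D3:**
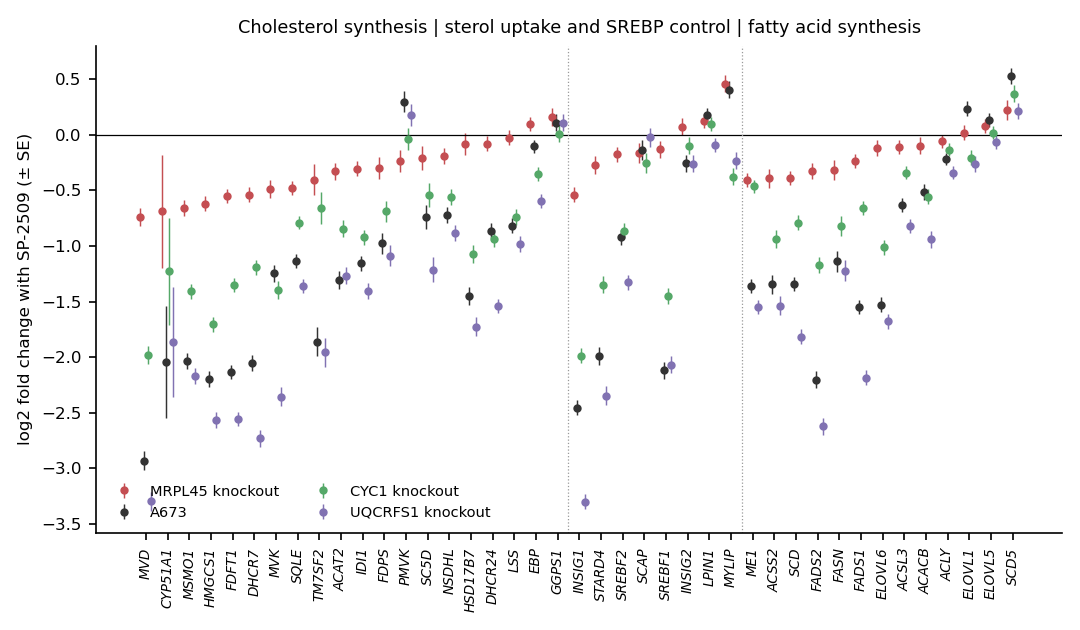
Log2 fold change with SP-2509 (points, bars ± SE) for the genes reported here of cholesterol synthesis, sterol uptake and SREBP control, and fatty acid synthesis, in the MRPL45 knockout line (red), A673 (black), the CYC1 knockout line (green) and the UQCRFS1 knockout line (purple). For MVD the value is -0.74 in the MRPL45 knockout line and -2.93 in A673.

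Promoters of 4 sterol genes are printed because CCAAT, the letters bound by NF-Y, recurs in them. They are the genes with the strongest fall among those with a matched sequence that holds it. Of the 16 sterol synthesis and uptake genes that fell, 10 had a promoter in the RefSeq table, and 9 of these 10 held CCAAT on either strand within 250 bases, against 33.04% of 27305 promoters. Of the 13 members with a promoter that were not called, 6 held it. The sterol regulatory element letters CACCCCAC were in 0 of the 10, against 2.37% of all promoters, which says only that these letters are not in this window. On GRCh38.p14, MVD lies at chr16:88663092-88663341, minus strand, and MSMO1 at chr4:165327419-165327668, plus strand. HMGCS1 lies at chr5:43313413-43313662, minus strand, and DHCR7 at chr11:71448394-71448643, minus strand. Capitals mark CCAAT or its complement ATTGG, with 3, 4, 2 and 2 matches in that order.
MVD: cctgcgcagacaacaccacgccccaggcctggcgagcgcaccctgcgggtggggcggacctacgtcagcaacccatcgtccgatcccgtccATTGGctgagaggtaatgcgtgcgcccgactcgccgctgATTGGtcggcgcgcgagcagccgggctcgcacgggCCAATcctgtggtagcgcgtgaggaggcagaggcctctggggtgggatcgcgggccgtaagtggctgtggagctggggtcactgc
MSMO1: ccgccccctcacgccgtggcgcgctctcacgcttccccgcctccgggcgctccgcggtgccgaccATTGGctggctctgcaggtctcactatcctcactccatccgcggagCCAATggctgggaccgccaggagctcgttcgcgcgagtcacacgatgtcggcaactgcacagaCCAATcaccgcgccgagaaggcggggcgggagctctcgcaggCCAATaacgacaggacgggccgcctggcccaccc
HMGCS1: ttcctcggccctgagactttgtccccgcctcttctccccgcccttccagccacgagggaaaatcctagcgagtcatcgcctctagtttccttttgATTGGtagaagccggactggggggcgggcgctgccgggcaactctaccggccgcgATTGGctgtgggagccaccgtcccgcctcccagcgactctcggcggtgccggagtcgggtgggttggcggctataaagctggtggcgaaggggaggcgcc
DHCR7: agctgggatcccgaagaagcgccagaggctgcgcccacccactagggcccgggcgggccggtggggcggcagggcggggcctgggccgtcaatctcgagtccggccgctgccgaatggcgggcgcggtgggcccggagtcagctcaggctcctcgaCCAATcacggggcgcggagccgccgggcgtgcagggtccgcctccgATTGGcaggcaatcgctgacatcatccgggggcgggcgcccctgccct

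AP-1 and immediate early genes had the highest share of rising members among the 45 lists: 19 of 24 were called higher and 0 lower, with a median log2 fold change of 0.64. DESeq2 called 20 higher and 0 lower, and 20 had an unadjusted p under 0.05. MAFF, a small MAF factor, was measured at 10.2 and 10.2 CPM with DMSO and 22.4 and 21.04 with SP-2509 (log2 fold change 1.09 ± 0.09 SE, adjusted p = 6.4e-09). The AP-1 subunits FOSL1 and JUN went from 18.4 and 16.7 to 32.6 and 32.8 CPM (0.89 ± 0.09) and from 112 and 116 to 191 and 171 CPM (0.67 ± 0.08). EGR2, a zinc finger factor, rose from 44.1 and 41.6 to 69.5 and 62.7 CPM (0.62 ± 0.07). KLF6, a zinc finger factor of the early response, rose from 212 and 200.2 to 328 and 342 CPM (0.70 ± 0.06). The MAP kinase phosphatase gene DUSP5 rose from 49.6 and 49.7 to 80.9 and 90.6 CPM (0.79 ± 0.08). For all 6 genes both treated libraries lay above both controls. FOSB rose by 0.73 ± 0.14.

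YAP and TAZ targets, the output of the Hippo pathway, gave 9 higher and 1 lower of 17. ANKRD1, a muscle and stress gene, was the most changed of those named, from 54.5 and 54.9 to 114 and 109 CPM (log2 fold change 1.03 ± 0.08 SE, adjusted p = 5.6e-09). CYR61 rose by 0.51 ± 0.10, CRIM1 by 0.45 ± 0.07 and TEAD4, a partner of YAP on DNA, by 0.33 ± 0.06. The member that fell was ARHGEF17 (-0.28 ± 0.08, call lost under 3 of 12 alternatives). Genes that EWSR1::FLI1 is known to hold down gave 11 higher and 1 lower of 30. TNC, a matrix glycoprotein, was at 503 and 473 CPM with DMSO and 764 and 757 with SP-2509 (log2 fold change 0.64 ± 0.07 SE, adjusted p = 9.2e-07). CD44, the hyaluronan receptor, was at 99.04 and 92.9 CPM with DMSO and 153 and 161 with SP-2509 (log2 fold change 0.71 ± 0.08 SE, adjusted p = 3.1e-07). SPRY4 and PHLDA1 rose by 0.69 ± 0.07 and 0.67 ± 0.08. The exception was COL1A2 (-0.38 ± 0.09, call lost under 2 of 12 alternatives). Genes known to be raised by the fusion gave 5 higher and 1 lower of 29. IGF1 rose from 84.2 and 80.4 to 117 and 113 CPM (0.48 ± 0.06), and PPP1R1A fell (-0.34 ± 0.07, call lost under 2 of 12 alternatives).

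Neuronal genes that REST and CoREST are known to silence gave 7 higher and 0 lower of 21. The list did not move as a whole, with a median log2 fold change of 0.004 and 11 of the 21 above 0. DESeq2 called 5 and 0, and 10 had an unadjusted p under 0.05. ELAVL3, a neuronal RNA-binding protein, went from 4.45 and 5.02 to 12.9 and 11.9 CPM (log2 fold change 1.39 ± 0.13 SE, adjusted p = 4.0e-08). The neurotrophin BDNF went from 2.84 and 2.77 to 5.99 and 5.61 CPM (1.04 ± 0.19), and VGF, a neuropeptide precursor, from 27.01 and 24.8 to 36.8 and 34.5 CPM (0.45 ± 0.09). With SP-2509 replicate 1 left out, or with only the 4 libraries of the line, 3 members were called higher, and 4 without DMSO replicate 1. Of 26 genes of LSD1 complexes, 3 rose and 6 fell, where 10.4% rose and 8.09% fell over all genes tested. RCOR1 had a log2 fold change of 0.24 ± 0.06, MTA3 -0.31 ± 0.06 and ZMYM3 -0.26 ± 0.06 (call lost under 2 of 12 alternatives). The lower count was 3 without DMSO replicate 1 or SP-2509 replicate 1, 2 without DMSO replicate 2 and 1 without SP-2509 replicate 2, and DESeq2 called 3 lower.

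Hypoxia targets other than glycolytic genes gave 11 higher and 0 lower of 21. DESeq2 gave the same counts and 11 had an unadjusted p under 0.05. STC1, a secreted glycoprotein, was measured at 8.27 and 8.68 CPM with DMSO and 19.3 and 17.9 with SP-2509 (log2 fold change 1.13 ± 0.10 SE, adjusted p = 2.2e-08). ADM, the vasodilator adrenomedullin, was at 6.66 and 6.70 CPM with DMSO and 14.2 and 14.3 with SP-2509 (log2 fold change 1.09 ± 0.11 SE, adjusted p = 1.7e-07). Neither gene overlapped between treatments. EPAS1, which encodes HIF-2α, rose from 77.0 and 76.6 to 139.6 and 139 CPM (0.86 ± 0.06). BHLHE40, a circadian repressor, rose from 43.3 and 37.2 to 65.4 and 63.0 CPM (0.67 ± 0.08). The histone demethylase gene KDM3A rose by 0.38 ± 0.05. The uncalled members included HIF1A (0.05 ± 0.06) and PDK1 (-0.02 ± 0.10), both named after their values were seen. Glucose uptake and glycolysis gave 10 higher and 2 lower of 24. The glucose carrier SLC2A3 rose from 44.7 and 43.1 to 68.1 and 71.99 CPM (0.67 ± 0.06) and HK2, hexokinase, by 0.37 ± 0.07. PFKFB4, which sets a regulator of glycolysis, fell from 2.34 and 2.51 to 1.32 and 1.23 CPM (-0.93 ± 0.17).

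The BHLHE40 promoter is shown because it has 4 matches to ACGTG, the core letters of the hypoxia response element, counted on both strands, with overlapping matches drawn as 1 run of capitals. ACGTG was in 4 of the 7 matched promoters among the 11 hypoxia targets that rose, in 4 of 9 among those not called, and in 18.68% of 27305 promoters. The sequence lies at chr3:4979187-4979436, plus strand, of GRCh38.p14.
BHLHE40: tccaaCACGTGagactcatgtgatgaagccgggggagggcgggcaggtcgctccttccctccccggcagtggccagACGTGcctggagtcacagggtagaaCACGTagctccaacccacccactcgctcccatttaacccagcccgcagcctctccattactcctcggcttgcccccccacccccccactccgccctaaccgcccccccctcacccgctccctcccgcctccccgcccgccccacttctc

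Growth arrest genes and targets of p53 gave 11 higher and 2 lower of 20. GADD45A, a stress sensor that slows the cell cycle, was measured at 34.5 and 35.9 CPM with DMSO and 77.5 and 77.6 with SP-2509 (log2 fold change 1.14 ± 0.07 SE, adjusted p = 5.0e-11). GADD45B, its relative, was at 26.1 and 25.6 CPM with DMSO and 56.8 and 56.3 with SP-2509 (log2 fold change 1.13 ± 0.06 SE, adjusted p = 2.4e-11). CDKN1A, the CDK inhibitor p21, was at 63.0 and 66.0 CPM with DMSO and 119 and 117 with SP-2509 (log2 fold change 0.87 ± 0.06 SE, adjusted p = 1.1e-09). All of them lay higher in both treated libraries. BTG1 rose by 0.73 ± 0.07 and AEN by 0.56 ± 0.07. CDKN1B, the CDK inhibitor p27, had -0.42 ± 0.07, and RRM2B -0.38 ± 0.09 (call lost under 2 of 12 alternatives). Cell death regulators gave 11 higher and 1 lower of 19. The BH3-only genes HRK, PMAIP1 (NOXA) and BCL2L11 (BIM), which promote death, rose by 1.31 ± 0.17, 0.70 ± 0.07 and 0.49 ± 0.08. The protective genes BCL2 and MCL1 rose as well, from 50.8 and 48.7 to 84.3 and 80.9 CPM (0.73 ± 0.06) and from 215 and 207 to 310.4 and 333 CPM (0.61 ± 0.06), and the pore-forming BAX had -0.26 ± 0.09 (call lost under 6 of 12 alternatives).

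DNA replication genes gave 12 higher and 2 lower of 35. The phosphatase CDC25A, the ribonucleotide reductase subunit RRM2, the clamp loader RFC2 and the licensing factor CDC6 had 0.50 ± 0.06, 0.46 ± 0.06, 0.44 ± 0.06 and 0.39 ± 0.06. Mitotic genes gave 2 higher and 6 lower of 26. The checkpoint kinase BUB1, the kinesin KIF20A and AURKA had -0.36 ± 0.06, -0.33 ± 0.06 and -0.24 ± 0.06 (call lost under 2 of 12 alternatives). Without DMSO replicate 2 or SP-2509 replicate 1 the lower count was 2, and without SP-2509 replicate 2 it was 3. Clustered histone genes gave 0 higher and 9 lower of 24. DESeq2 gave the same counts and 11 had an unadjusted p under 0.05. HIST1H3J was at 41.4 and 39.1 CPM with DMSO and 17.3 and 15.6 with SP-2509 (log2 fold change -1.30 ± 0.08 SE, adjusted p = 1.1e-10). HIST1H2BL went from 44.3 and 47.7 to 27.6 and 25.2 CPM (-0.80 ± 0.07), and the linker histone HIST1H1B from 226 and 219 to 147 and 143 CPM (-0.61 ± 0.07). These histone mRNAs mostly lack a poly(A) tail and the RNA was labelled polyA, and their sequences are alike, so their counts are uncertain. Ribosome biogenesis gave 12 higher and 0 lower of 19. DESeq2 called 14 and 0, and 14 had an unadjusted p under 0.05. MYC went from 148 and 149 to 188 and 176 CPM (0.29 ± 0.06) and NOLC1, a nucleolar chaperone, from 353 and 384 to 482 and 470.2 CPM (0.37 ± 0.06). Cytosolic ribosomal proteins gave 8 higher and 2 lower of 51 (14 and 1 by DESeq2), with RPL24 at 0.39 ± 0.07 and RPL3 at -0.33 ± 0.07 (call lost under 2 of 12 alternatives). Many of them have near-identical pseudogenes.

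Of 26 antioxidant genes under NRF2, 10 fell and 1 rose. NQO1, a quinone reductase, was measured at 43.9 and 47.7 CPM with DMSO and 23.03 and 24.4 with SP-2509 (log2 fold change -0.94 ± 0.07 SE, adjusted p = 2.0e-09). GCLM, a subunit of the enzyme that starts glutathione synthesis, was at 62.6 and 65.1 CPM with DMSO and 43.4 and 40.1 with SP-2509 (log2 fold change -0.62 ± 0.06 SE, adjusted p = 2.4e-07). GSR, glutathione reductase, was at 146 and 146 CPM with DMSO and 104 and 113 with SP-2509 (log2 fold change -0.42 ± 0.07 SE, adjusted p = 7.6e-05). These enzymes were lower in both treated libraries, and OSGIN1 had -0.71 ± 0.15. NFE2L2, the gene of NRF2 itself, had 0.17 ± 0.06 (call lost under 8 of 12 alternatives). Without DMSO replicate 2 the list gave 1 higher and 5 lower, without SP-2509 replicate 2 it gave 0 and 5, and with upper-quartile scaling 0 and 15. The antioxidant response element core TGACNNNGC was in 1 of the 9 matched promoters among the 10 genes that fell. It was in 2 of 10 among those not called, and in 11.03% of 27305 promoters.

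Cytosolic heat shock proteins gave 1 higher and 5 lower of 16. The lower count was 3 without DMSO replicate 2 or either SP-2509 replicate, and 8 with upper-quartile scaling. HSPA1A went from 47.9 and 52.6 to 29.7 and 28.4 CPM (-0.79 ± 0.08) and HSPB1 from 266 and 259.5 to 168 and 183 CPM (-0.58 ± 0.07). HSF1, the factor that drives them, rose from 169.8 and 166 to 229.9 and 213 CPM (0.3999 ± 0.07). HSPA1A and HSPA1B are near-identical copies and their reads may be split. Chaperones and sensors of the endoplasmic reticulum gave 4 higher and 4 lower of 21. The sensor ERN1 (IRE1) was at 12.6 and 11.3 CPM with DMSO and 23.9 and 22.2 with SP-2509 (log2 fold change 0.94 ± 0.10 SE, adjusted p = 5.9e-07). HERPUD1, a degradation factor, rose by 0.62 ± 0.07, and the chaperone partners SDF2L1 and CRELD2 had -0.64 ± 0.12 and -0.48 ± 0.10. TFRC, the transferrin receptor that brings iron into the cell, had the smallest p of the named genes. Its level was 346 and 342 CPM with DMSO and 821 and 907 with SP-2509 (log2 fold change 1.33 ± 0.06 SE, adjusted p = 1.8e-12). It was the 1 iron gene of 15 that rose, and 2 fell, a lower count that was 0 without any 1 of the 4 libraries. In the endoplasmic reticulum list the lower count was 2 without SP-2509 replicate 1 and the higher count 2 without SP-2509 replicate 2.

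Genes encoded by mitochondrial DNA come first. The edgeR test called none of the 13 mRNAs encoded by mitochondrial DNA, none had an unadjusted p under 0.05, and DESeq2 called none, while edgeR called 1 higher without DMSO replicate 1. Their log2 fold changes ran from -0.096 for MT-ND6 to 0.22 for MT-ND4. The share of reads on mitochondrial genes was 2.844% and 1.922% with DMSO and 2.704% and 2.166% with SP-2509. Replicates of a treatment differed by more than the treatment means did. Of 74 tested proteins of the mitochondrial ribosome, 3 rose and 4 fell, with MRPL37 at 0.45 ± 0.06, MRPL42 at 0.28 ± 0.07 (call lost under 1 of 12 alternatives) and MRPS26 at -0.33 ± 0.08 (call lost under 2 of 12 alternatives). Without DMSO replicate 2 the counts were 13 higher and 0 lower, without DMSO replicate 1 they were 1 and 4, and without SP-2509 replicate 2 they were 3 and 1. Complex I gave 2 higher and 2 lower of 39, and complexes II to V 4 higher and 1 lower of 39. Over all genes tested 10.4% were called higher and 8.09% lower. The counts for the mitochondrial ribosome, complex I and complexes II to V do not exceed these shares. The higher count for complexes II to V was 7 without DMSO replicate 2 and 2 without SP-2509 replicate 2, and 0 were lower without DMSO replicate 2 or either SP-2509 replicate. The higher count for complex I was 0 without DMSO replicate 1 and 1 without SP-2509 replicate 1. CYCS, cytochrome c, rose from 276 and 297 to 378 and 376 CPM (0.396 ± 0.06), and the complex III subunit UQCRH by 0.30 ± 0.07. CYC1 (-0.06 ± 0.07) and UQCRFS1 (0.102 ± 0.06) were not called. Mitochondrial chaperones and proteases gave 4 higher and 3 lower of 17, and 0 lower without DMSO replicate 1 and 1 lower without SP-2509 replicate 1. The chaperones HSPA9 and DNAJA3 rose by 0.30 ± 0.06 and 0.35 ± 0.06, and the protease genes AFG3L2 and HTRA2 had -0.23 ± 0.06 (call lost under 3 of 12 alternatives) and -0.37 ± 0.10 (call lost under 2 of 12 alternatives). TFAM, which packages mitochondrial DNA, had 0.22 ± 0.06 (call lost under 4 of 12 alternatives).

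Collagens and matrix enzymes gave 10 higher and 4 lower of 29, and 6 higher without SP-2509 replicate 2. COL12A1 rose from 115 and 107 to 163 and 164 CPM (0.56 ± 0.07) and the protease MMP3 from 22.03 and 21.4 to 34.9 and 39.99 CPM (0.79 ± 0.11). The crosslinking enzyme LOXL1 fell from 53.5 and 53.5 to 36.1 and 33.1 CPM (-0.63 ± 0.07). Adhesion genes gave 6 higher and 0 lower of 17, and 3 higher without DMSO replicate 1. CLDN1, a tight junction protein, went from 450.4 and 459.7 to 628 and 628 CPM (0.47 ± 0.06). DESeq2 called 5 adhesion genes higher and 0 lower, and 9 had an unadjusted p under 0.05. The IGF axis gave 6 higher and 0 lower of 16 (7 and 0 by DESeq2, and 11 with an unadjusted p under 0.05). The binding proteins IGFBP4 and IGFBP3 rose by 0.50 ± 0.07 and 0.66 ± 0.14, and the RNA-binding IGF2BP2 by 0.39 ± 0.06. Keratin and envelope genes gave 7 higher and 0 lower of 10 (7 and 0 by DESeq2, and 8 with an unadjusted p under 0.05), from low levels. KRTAP4-8 was at 0.69 and 0.66 CPM with DMSO and 4.56 and 4.05 with SP-2509 (log2 fold change 2.65 ± 0.20 SE, adjusted p = 2.0e-09). KRT34, a hair keratin, was at 0.81 and 0.69 CPM with DMSO and 2.45 and 2.38 with SP-2509 (log2 fold change 1.66 ± 0.22 SE, adjusted p = 6.5e-06). Members of the KRTAP4 family are alike in sequence and may share reads. SPRR2D had 1 count in the 2 control libraries and 52 in the treated ones, a ratio of 52.9 (95% exact interval 9.09 to 2129, counting error only).

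Lysosome and autophagy genes gave 3 higher and 6 lower of 28 (4 and 3 by DESeq2), against 10.4% higher and 8.09% lower over all genes tested. Without DMSO replicate 1 the lower count was 2, without DMSO replicate 2 it was 3, and without SP-2509 replicates 1 and 2 it was 0 and 2. MAP1LC3B (LC3B), a protein of the autophagosome, rose from 152 and 165 to 216 and 227 CPM (0.49 ± 0.06), and the lysosomal regulator TFE3 by 0.37 ± 0.07. BMP and ID genes gave 4 higher and 2 lower of 18, and 2 higher without DMSO replicate 1 or SP-2509 replicate 1. Cytokines gave 4 higher and 1 lower of 18, and 2 higher without DMSO replicate 1 or SP-2509 replicate 2. PTX3, a pattern recognition protein, went from 0.63 and 0.92 to 3.35 and 3.41 CPM (2.18 ± 0.25). Interferon response genes gave 1 higher and 3 lower of 28 (1 and 1 by DESeq2), and 1 lower without either DMSO replicate or without SP-2509 replicate 1. The interferon counts are near or below the shares over all genes tested. BST2, which tethers virus particles, fell from 1.09 and 1.32 to 0.23 and 0.37 CPM (-1.91 ± 0.28). MHC class I genes gave 2 higher and 0 lower of 15 (2 and 0 by DESeq2, and 4 with an unadjusted p under 0.05), namely HLA-E (0.6003 ± 0.06) and B2M (0.27 ± 0.07, call lost under 2 of 12 alternatives).

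Outside the lists, the strongest rises among genes reaching 5 CPM included DHRS2, a mitochondrial reductase, at 3.01 and 2.61 CPM with DMSO and 8.67 and 8.28 with SP-2509 (log2 fold change 1.58 ± 0.15 SE, adjusted p = 6.2e-08). EDN1, the vasoconstrictor endothelin, was at 3.24 and 3.47 CPM with DMSO and 9.23 and 8.84 with SP-2509 (log2 fold change 1.43 ± 0.18 SE, adjusted p = 3.5e-06). The bZIP factor CREB5 was at 15.9 and 15.8 CPM with DMSO and 42.3 and 38.3 with SP-2509 (log2 fold change 1.34 ± 0.08 SE, adjusted p = 2.4e-11). SV2B, a synaptic vesicle protein, rose by 1.35 ± 0.17 and HKDC1, a hexokinase relative, by 1.33 ± 0.17. The strongest falls included OPLAH, the oxoprolinase of glutathione turnover, at 9.25 and 8.02 CPM with DMSO and 3.505 and 2.77 with SP-2509 (log2 fold change -1.496 ± 0.14 SE, adjusted p = 5.6e-08). PIR, an iron-binding nuclear protein, was at 20.9 and 22.2 CPM with DMSO and 7.99 and 8.47 with SP-2509 (log2 fold change -1.38 ± 0.08 SE, adjusted p = 2.3e-11). The pituitary transcription factor POU1F1 was at 9.92 and 10.6 CPM with DMSO and 4.296 and 4.01 with SP-2509 (log2 fold change -1.31 ± 0.11 SE, adjusted p = 1.5e-08). FAM114A1, the receptor CD40 and the tumour antigen PRAME had log2 fold changes of -1.34 ± 0.14, -1.07 ± 0.15 and -1.07 ± 0.15. Both treated libraries were on the same side of both controls in all of these, which the rule for naming them required.

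The response of the MRPL45 knockout line had fewer called genes than that of the other lines. In the same fit SP-2509 changed 12541 genes in A673 (58%, 31.6% higher and 26.4% lower). It changed 11837 in the UQCRFS1 line (54.7%, 29.6% higher and 25.1% lower) and 7217 in the CYC1 line (33.4%, 18.7% higher and 14.7% lower). Changes of at least 2-fold numbered 4984 (23%), 4213 (19.5%) and 1236 (5.71%) there, against 301 (1.39%) in the MRPL45 knockout line. By DESeq2 they numbered 4029, 3447 and 909 there, against 145. The MRPL45 knockout line held the smallest libraries of the series. After thinning to the smallest library, 11083 genes were called in A673, 10513 in the UQCRFS1 line and 6432 in the CYC1 line, against 3628. Testing the difference between responses gave 8368 genes against A673 (38.7%, 14.5% higher and 24.2% lower in the MRPL45 knockout line). It gave 7738 against the UQCRFS1 line (35.8%, 14.8% higher and 20.9% lower) and 2291 against the CYC1 line (10.6%, 4.9% higher and 5.69% lower). With upper-quartile factors the share of higher calls went from 54.4% to 41.6% in A673 and from 54.1% to 43.6% in the UQCRFS1 line. For the differences it went from 37.5% to 52.9% against A673 and from 41.5% to 53.4% against the UQCRFS1 line. By DESeq2 it went from 46.3% to 58.1% against the CYC1 line. The count against the CYC1 line was 1359 to 1958 with 1 library left out. The MRPL45 knockout line and the others share no library, so their calls can be set side by side. Of its 4005 called genes, 85.02% were called in the same direction in A673, 83.27% in the UQCRFS1 line and 67.72% in the CYC1 line. These are 27.15%, 28.17% and 37.58% of the genes called in those lines. In the same direction in all 3 were 2489 genes, 62.15% of those called and 11.5% of those tested, of which 1515 rose and 974 fell. Across 10597 genes averaging at least 5 CPM over the 8 groups, the fold changes had a Pearson's r of 0.7076 and a Spearman's rho of 0.7006 with those of A673. The values were 0.6896 and 0.6905 for the UQCRFS1 line and 0.6334 and 0.6381 for the CYC1 line. They describe genes, which are not independent replicates.

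**Figure D4:**
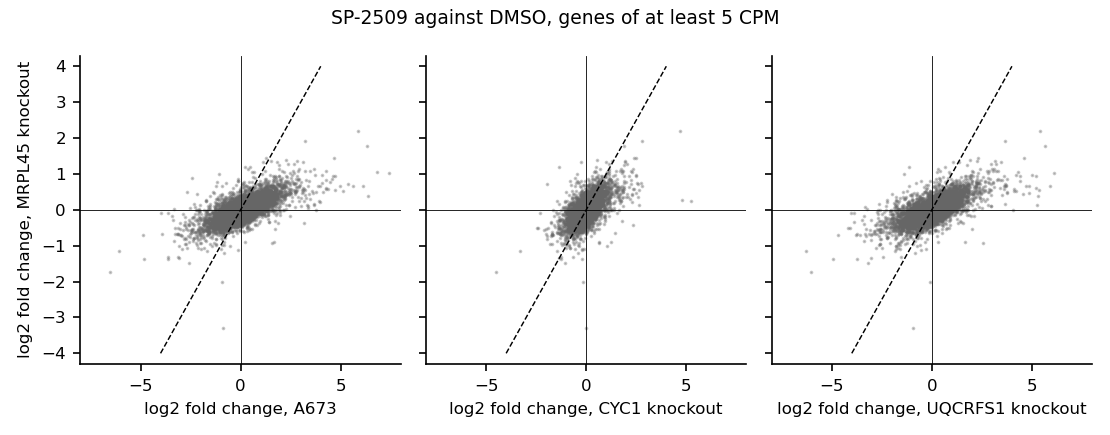
Log2 fold change with SP-2509 in the MRPL45 knockout line (vertical axis) against that in A673, the CYC1 knockout line and the UQCRFS1 knockout line (horizontal axes), one point for each of 10597 genes averaging at least 5 CPM over the 8 groups. The dashed line marks equal values and the axes have different ranges. The points lie flatter than the dashed line against A673 and the UQCRFS1 knockout line.

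Genes called with a change of at least 2-fold in another line had a smaller median change in the MRPL45 knockout line. The 2294 genes called at least 2-fold higher in A673 had a median log2 fold change of 1.63 there and 0.35 in the MRPL45 knockout line, where 43.29% of them were called higher and 5.41% at least 2-fold. Of the 2690 genes at least 2-fold lower in A673, with a median of -1.60, 21.75% were called lower in the MRPL45 knockout line, with a median of -0.34. Because these genes were chosen by their fold in the other line, part of the gap follows from the choice. Levels with DMSO differed as well. Of the 2294 rising genes, 1858 stood higher in the MRPL45 knockout line (median 4.708 against 1.494 CPM in A673). Of the 2690 falling genes, 796 did (0.73 against 0.948 CPM). For genes rising in the UQCRFS1 and CYC1 lines it was 1475 of 1879 and 647 of 730. The choice bears on these levels too, and their part in the gap was not tested. The cholesterol synthesis list, chosen with earlier results known, is given beside these sets of genes as a description. Of its 21 genes, 18 fell in A673, 18 in the CYC1 line and 19 in the UQCRFS1 line. The difference was called toward higher values in the MRPL45 knockout line for 17, 15 and 18 of them. Its members summed to 1474 and 1534 CPM with DMSO and 1213 and 1237 with SP-2509 in the MRPL45 knockout line. In A673 they summed to 2326 and 2417 CPM with DMSO and 1052 and 1040.4 with SP-2509. MVD had log2 fold changes of -2.93, -1.98 and -3.29 in these lines and -0.74 in the MRPL45 knockout line.

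Of the 17 regulators of the integrated stress response, the difference from A673 was called for 10, 2 higher and 8 lower in the MRPL45 knockout line. PPP1R15A had a log2 fold change of 1.43 in the MRPL45 knockout line and 4.64 in A673, and DDIT3 had 1.36 and 2.80. The log2 fold change of the iron gene TFRC was 1.33 in the MRPL45 knockout line, 1.11 in A673, 0.99 in the CYC1 line and 1.35 in the UQCRFS1 line. Of these differences, the one against the CYC1 line was called. For the stress gene TRIB3 the value was 1.44, against 1.25 in A673, where the difference was not called, and 2.47 and 2.31 in the other knockout lines, where it was. Integrated stress response effectors gave 6 higher and 9 lower of 16 in A673, and the same counts in the UQCRFS1 line, but 14 higher and 1 lower in the CYC1 line. Serine and one-carbon enzymes gave 1 higher and 10 lower of 15 in A673, 2 and 10 in the UQCRFS1 line, and 7 and 3 in the CYC1 line. ASNS, at 0.02 in the MRPL45 knockout line, had -2.09 in A673, -1.71 in the UQCRFS1 line and 1.25 in the CYC1 line. CHAC1 had -2.52, -1.08 and 1.37 in the same order.

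The genes with the widest gaps to A673 differed in their levels with DMSO too, a comparison given as levels with no test. ANKRD1 was measured at 54.5 and 54.9 CPM with DMSO and 114 and 109 with SP-2509 in the MRPL45 knockout line. In A673 it was at 0.52 and 0.54 CPM with DMSO and 89.6 and 89.5 with SP-2509. The controls lay far apart and the treated levels close, and the responses differed by -6.37 ± 0.17 on the log2 scale. GREM1, a BMP antagonist, stood at 17.6 and 16.8 CPM with DMSO and 22.5 and 22.1 with SP-2509 in the MRPL45 knockout line. The A673 values were 0.06 and 0.13 CPM with DMSO and 7.68 and 8.06 with SP-2509 (difference of responses -5.98 ± 0.24). CD44 was at 0.43 and 0.49 CPM with DMSO and 20.1 and 18.2 with SP-2509 in A673, so its controls in the MRPL45 knockout line, at 99.0 and 92.9 CPM, lay above every A673 library. PERP, a desmosomal protein, was at 15.8 and 15.7 CPM with DMSO and 20.6 and 23.2 with SP-2509 in the MRPL45 knockout line, and at 0.04 and 0.07 CPM with DMSO and 0.53 and 0.52 with SP-2509 in the CYC1 line (difference -2.72 ± 0.38). 

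Other genes fell in A673 with a weaker fall, or no call, in the MRPL45 knockout line. CD82, a tetraspanin, was at 10.5 and 10.002 CPM with DMSO and 10.2 and 9.25 with SP-2509 in the MRPL45 knockout line, where it was not called. In A673 it was at 5.59 and 6.63 CPM with DMSO and 0.49 and 0.44 with SP-2509 (difference 3.62 ± 0.23). MAP2K6, a kinase upstream of p38, was at 8.499 and 8.81 CPM with DMSO and 7.95 and 8.24 with SP-2509 in the MRPL45 knockout line, also not called. Its A673 values were 19.9 and 18.4 CPM with DMSO and 1.03 and 1.37 with SP-2509 (difference 3.89 ± 0.16). METTL7A, a lipid droplet protein, fell from 20.3 and 19.3 to 12.2 and 12.3 CPM in the MRPL45 knockout line. A673 had 31.6 and 29.99 CPM with DMSO and 1.13 and 0.97 with SP-2509.

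**Figure D5:**
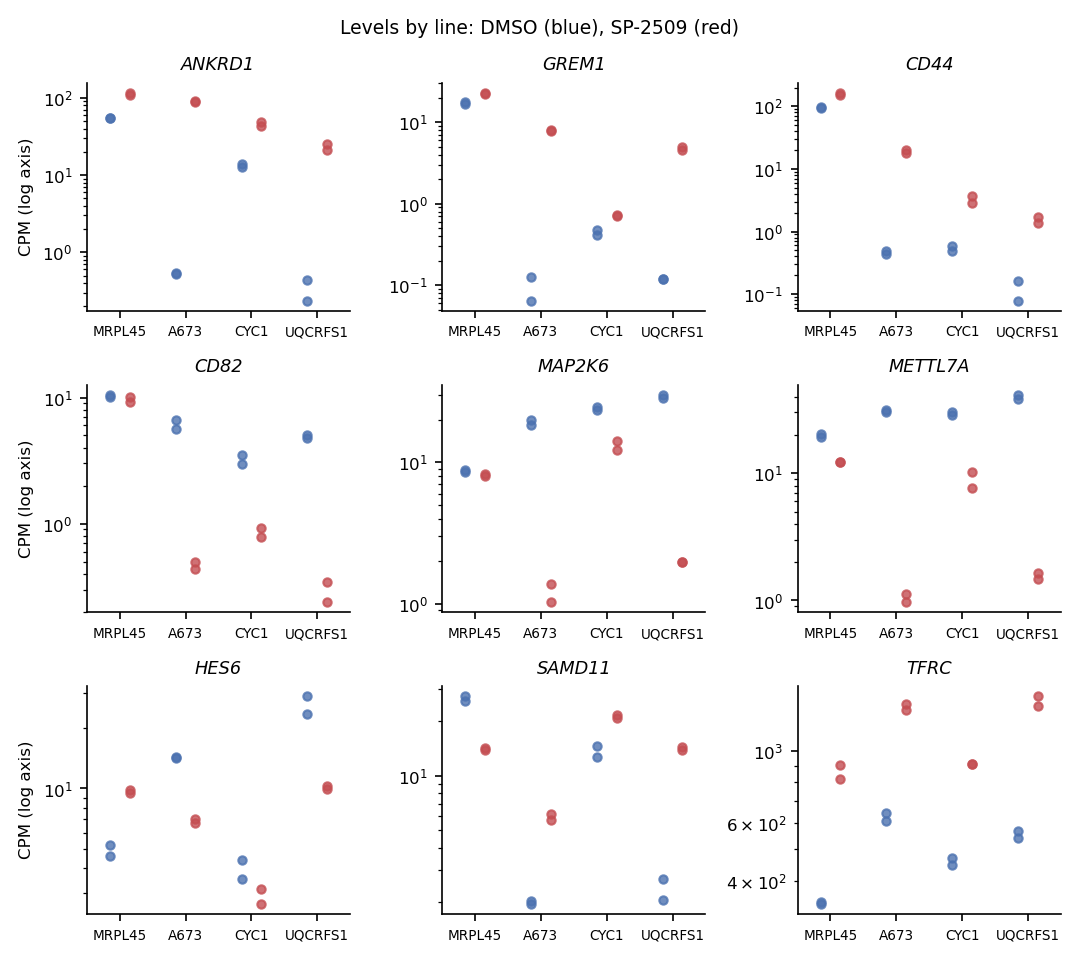
Level of 9 genes in all 16 libraries, in CPM on log axes, with DMSO in blue and SP-2509 in red for the MRPL45 knockout line, A673, the CYC1 knockout line and the UQCRFS1 knockout line, 1 point per library. ANKRD1, GREM1 and CD44 start at higher control levels in the MRPL45 knockout line, CD82 and MAP2K6 fall in the other lines, and HES6 and SAMD11 move in the opposite direction.

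A few genes went the opposite way. Called in the MRPL45 knockout line and called in the other direction in all 3 other lines were 38 genes, 0.176% of those tested, 20 higher and 18 lower. HES6, a Notch pathway repressor of the HES family, rose from 4.57 and 5.18 to 9.53 and 9.84 CPM (log2 fold change 1.002 ± 0.12 SE, adjusted p = 2.4e-06). Its log2 fold changes were -1.06, -0.44 and -1.37 in A673, the CYC1 line and the UQCRFS1 line. INHBA, the activin A subunit, rose from 2.13 and 1.88 to 3.62 and 3.68 CPM (log2 fold change 0.85 ± 0.18 SE, adjusted p = 0.0011), against -1.01, -0.74 and -1.03. SAMD11, a SAM domain protein, fell from 27.3 and 25.7 to 14.2 and 13.8 CPM (log2 fold change -0.92 ± 0.09 SE, adjusted p = 2.2e-07), against 1.55, 0.63 and 2.57. VAV1, a guanine exchange factor of blood cells, and ATP2B4, a calcium pump, rose by 0.41 ± 0.08 and 0.36 ± 0.07, and the calcium sensor STIM2 and the BMP effector SMAD9 had -0.26 ± 0.07 (call lost under 2 of 12 alternatives) and -0.26 ± 0.07 (call lost under 2 of 12 alternatives). Genes called in the MRPL45 knockout line and in none of the others numbered 187 (4.67% of its calls). Of these, 45 changed at least 2-fold, and 0 of the 45 reached 5 CPM.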

How the data were processed

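Poly(A) RNA of the 16 libraries was sequenced, and the analysis started from the raw counts of reads per gene as the authors deposited them. Per the submitters' processing notes, FastQC, MultiQC, Trim Galore, STAR 2.5.2b, DESeq2 and the hg19 build were used; for the strand setting and annotation the sources used here give nothing. The table holds 39249 genes, and 2265 rows have no symbol but an identifier. From these counts edgeR 4.0.16 (R 4.3.3) with TMM factors fitted 8 group means to the 16 libraries, leaving 8 residual degrees of freedom, after its expression filter left 21633 genes; the robust quasi-likelihood test was used with Benjamini-Hochberg adjustment over all genes tested, and SE was taken from the F statistic. Responses were compared between lines as differences of log2 fold changes in that fit. CPM are counts scaled to the library total times its TMM factor.

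Replicates are 2 libraries per group, and no label says whether these were separate cultures. The p-values therefore cover library-to-library spread alone, possibly technical. Replicates differed by more than sampling noise, with chi-square per degree of freedom of 23.192 to 47.852. Members and gene lists were chosen with earlier results of these data known. Named genes were the 15 strongest rising and falling called genes reaching 5 CPM with groups that do not overlap, up to 6 called members of each list plus up to 3 against its direction, up to 6 genes per direction for each difference between lines, and up to 6 per direction called the opposite way in all 3 other lines; exceptions are named as such, and values of some named genes are not reported here. On simulated counts for the MRPL45 knockout comparison over 21183 genes, 92% of 50 genes changed 1.5-fold and 100% of those changed 2-, 3- or 4-fold were called, with 7 false calls. The changed genes, 50 per fold, were drawn only from genes averaging at least 5 CPM. They were far fewer than the 4005 called in the data, and no replicate effect shared between groups was simulated. Recovery of genes below 5 CPM, or of changes under 1.5-fold, was not tested. The median absolute log2 fold change of the called genes, 0.36, is a smaller change than that. Counts were drawn with a spread that followed the level of a gene, with none particular to single genes. Alternatives tried were DESeq2 1.42.0, upper-quartile and RLE factors, no filter, a mean of at least 5 CPM, thinning to the smallest library, a replicate block, the line's own libraries alone, and leaving out each library.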

Additional observations from a re-analysis of the deposited data

Results flagged for a closer look

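The SP-2509 response of the MRPL45 knockout line differed from that of another line, by a test of the difference itself, for 8368 genes against A673, 2291 against the CYC1 knockout line and 7738 against the UQCRFS1 knockout line. Differences below are log2 fold changes in the MRPL45 knockout line minus those in the other line. A positive value marks a stronger rise, a weaker fall, or a rise where the other line fell. Against A673 the values were 5.89 for TMEM119, 4.77 for PLA2G3, 4.18 for METTL7A, 3.89 for MAP2K6 and 3.62 for CD82. They were -6.37 for ANKRD1 and -5.98 for GREM1. Against the CYC1 knockout line they were 2.67 for FOSB, 2.57 for APLN, 2.28 for TMEM119, 2.20 for CAPN6 and 1.96 for CREB3L1, and -2.72 for PERP and -2.48 for PTX3. Against the UQCRFS1 knockout line they were 4.77 for RP1-193H18.2, 4.31 for PLA2G3, 4.21 for DCN, 3.98 for CD82 and 3.98 for METTL7A, and -5.23 for ZNF486, -5.07 for ANKRD1 and -4.91 for GREM1.

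Genes called the opposite way in all 3 other lines also differed from A673. The difference was 2.06 for HES6, 1.86 for INHBA, 1.45 for VAV1, 1.35 for ATP2B4, 1.29 for LINC01547 and 0.50 for MYADM. It was -2.48 for SAMD11, -2.25 for PRRG4, -2.23 for RP11-54O7.3, -1.005 for PPP4R2, -0.85 for SMAD9 and -0.67 for STIM2.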

How the results depend on the processing

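The 4005 genes called in the MRPL45 knockout line numbered 3415 by DESeq2, 4152 and 3901 with upper-quartile and RLE factors, 3752 with no filter, 3912 with a mean of at least 5 CPM, 3628 after thinning and 2928 in a fit of its 4 libraries alone. Leaving out 1 library gave 2393 to 3093, with 2615 without SP-2509 replicate 1 and 2393 without SP-2509 replicate 2. In A673, a mean of at least 5 CPM gave 8305 in place of 12541, with fewer genes tested. The count against the CYC1 knockout line was 1359 to 1958 with 1 library left out, and fell to 1514 without its DMSO replicate 1, 1359 without its DMSO replicate 2 and 1433 without its SP-2509 replicate 2. Upper-quartile factors moved the share of higher calls from 54.4% to 41.6% in A673 and from 54.1% to 43.6% in the UQCRFS1 line, with median shifts of all genes of -0.18 and -0.14 on the log2 scale; for the differences against these lines it went from 37.5% to 52.9% and from 41.5% to 53.4%, with shifts of 0.15 and 0.11. A mean of at least 5 CPM gave 47.6% against A673, and DESeq2 moved the share against the CYC1 knockout line from 46.3% to 58.1%. Of the 292 named genes called in the MRPL45 knockout line, 192 kept the call under all 12 alternatives, 100 lost it under at least 1, and 0 reversed.

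Samples of the 2 treatments share replicate numbers, but no label ties a number to a culture and each line has only 2 pairs. Same-numbered libraries deviated together with r of 0.1265 over 10597 genes in the MRPL45 knockout line. The r was 0.487 in A673, 0.6593 in the CYC1 line and 0.5035 in the UQCRFS1 line. Between groups of different lines it ran from 0.09101 to 0.6301, so the number carried something shared across the series. What it marks was not tested. With the replicate number as a block, 4444 genes were called in the MRPL45 knockout line, 12886 in A673, 7652 in the CYC1 line and 12217 in the UQCRFS1 line, and 8779, 2564 and 8145 in the differences against these lines.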
